A study of Mus musculus with 6 samples.

Results

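The miR-15 and miR-16 seed family was described here by the 10 mature miRNAs named for it, taken by their names from the 1907 distinct miRNAs quantified in mouse liver. All 10 were found: miR-15a-5p, miR-15b-5p, miR-16-5p, miR-195a-5p, miR-497a-5p and miR-322-5p from the 5p arms of their hairpins, and miR-15a-3p, miR-15b-3p, miR-16-1-3p and miR-16-2-3p from the opposite arms. Small RNA libraries came from the liver of 3 female and 3 male C57BL/6N mice, 12 weeks old, healthy littermates on a chow diet, with no allele, agent or injury in either group. The series is about liver injury that depends on sex and on SAB, a protein of the outer mitochondrial membrane, and the samples allow 1 comparison, that of female with male liver. Each library was taken as 1 animal, as the labels list them as separate littermates.

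A miRNA guides an Argonaute protein to messenger RNAs that pair with its seed, the bases near its 5′ end, and lowers the output of those messages. Members of a seed family therefore share many targets, and for miR-15 and miR-16 these include cell cycle and survival genes such as Ccnd1, Ccne1, Chek1 and Bcl2. The hairpins of miR-15a and miR-16-1 lie in the non-coding gene Dleu2, whose human counterpart is often deleted in chronic lymphocytic leukaemia. In mouse, miR-195 is known for its part in the arrest of the cell cycle in heart muscle after birth, and miR-322, the counterpart of human miR-424, for its part in the differentiation of muscle cells. The opposite arm of a hairpin is usually discarded when the guide strand is loaded.

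The mature sequences of the 5p members are shown because the seed defines the family and the bases after it decide which reads can be told apart. They are from RefSeq (GRCm38.p6), 5′ to 3′, with the seed, bases 2 to 8, in capitals.
miR-16-5p: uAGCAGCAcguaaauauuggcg
miR-195a-5p: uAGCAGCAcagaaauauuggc
miR-15a-5p: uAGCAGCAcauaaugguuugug
miR-15b-5p: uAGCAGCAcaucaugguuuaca
miR-497a-5p: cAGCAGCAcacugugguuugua
miR-322-5p: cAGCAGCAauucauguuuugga
All 6 carried the same seed. Compared from the 5′ end without gaps, miR-16-5p and miR-195a-5p were the closest pair, with 19 of 21 bases the same. The pair miR-15a-5p and miR-15b-5p shared 18 of 22 bases and first differed at base 12. By contrast miR-16-5p and miR-322-5p shared 12 of 22.

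The 3p members do not carry that seed, nor the seed of one another, so the name of the family fits 6 of the 10 members. They are shown to make this visible, with bases 2 to 8 in capitals as before.
miR-15a-3p: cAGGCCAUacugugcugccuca
miR-15b-3p: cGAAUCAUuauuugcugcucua
miR-16-1-3p: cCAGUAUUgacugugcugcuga
miR-16-2-3p: aCCAAUAUuauugugcugcuuu
Another 4 names of the table share the seed of the 5p members and are not among the 10. The nearest of them to a member is miR-195b, from chromosome 2 (56785825 to 56785846, plus strand), which shared 18 of 21 bases with miR-195a-5p.
miR-195b: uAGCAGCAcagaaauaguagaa
It had 28, 19 and 20 counts in female libraries and 34, 14 and 104 in male libraries. The other 3, miR-6342, miR-6353 and miR-6419, had at most 3 counts in any library.

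The members come from 7 hairpins at 4 places in the genome (GRCm38, the mm10 build). The hairpins Mir15b and Mir16-2 lie 66 bases apart on chromosome 3, plus strand, in an intron of Smc4, which encodes a subunit of the condensin complex. There miR-15b-5p spans 69009775 to 69009796 and miR-16-5p 69009918 to 69009939. The hairpins Mir16-1 and Mir15a lie 54 bases apart on chromosome 14, minus strand, in an intron of Dleu2, with miR-15a-5p at 61632075 to 61632096 and a second copy of miR-16-5p at 61631936 to 61631957. Both copies of miR-16-5p have the same mature sequence, so its counts cannot be divided between Smc4 and Dleu2. On chromosome 11, plus strand, miR-497a-5p (70234730 to 70234751) and miR-195a-5p (70235062 to 70235082) lie in hairpins 241 bases apart, with no host gene on that strand. The hairpin of miR-497a overlaps that of miR-497b on the other strand. On chromosome X, minus strand, miR-322-5p lies at 53054306 to 53054327, outside any annotated host gene and first in a cluster with miR-503, miR-351, miR-542 and miR-450.

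Total counts ran from 3285249 to 16444675 per library, lower in the 3 female than in 2 of the 3 male libraries, and 1 count stood for 0.0635 to 0.285 CPM (counts scaled to a library of 1000000, with library sizes adjusted by TMM, a method that scales libraries so that most miRNAs do not differ). The hepatocyte miRNA miR-122-5p took 32.5 to 35.5% of each library. Male replicate 2 stood apart: on the first principal component, with 51.6% of the variance, it lay at 8.21, against 1.81 and 3.27 for the other males and -6.04 to -2.11 for the females. It held the lowest value of 29.5% and the highest of 31.1% of the 370 tested miRNAs. TMM factors averaged 1.05 in female and 0.953 in male libraries, so that adjusted levels are lower in females and higher in males than plain shares of counts.

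All 10 members had counts in every library, from 6 for miR-15a-3p in male replicate 2 to 792082 for miR-16-5p in male replicate 3, and all 10 passed the filter on low counts. Their order by mean level over the 6 libraries was steep at the top. First came miR-16-5p at 53298 ± 3075 CPM (SD, n = 6), which ranked 4 among all miRNAs in 5 libraries and 5 in male replicate 1. Next was miR-15a-5p at 613 ± 120 CPM, 86.9 times lower by the ratio of means. Then came miR-322-5p at 439 ± 43.9, miR-15b-5p at 259 ± 31.5, miR-195a-5p at 223 ± 31.1 and miR-497a-5p at 121 ± 21.8 CPM. The 3p members stood below all of these, miR-15b-3p at 22.7 ± 1.58, miR-16-2-3p at 18.8 ± 2.62, miR-16-1-3p at 9.23 ± 2.44 and miR-15a-3p at 2.41 ± 0.677 CPM. As all are 21 or 22 bases long, counts were compared with no length correction. How well each sequence is ligated and amplified was not measured, and it enters any such order.

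Most steps in this order held in every library. The ranges of miR-15a-5p and miR-322-5p overlapped, although miR-15a-5p was the higher in each of the 6. The steps from miR-15b-5p to miR-195a-5p and from miR-15b-3p to miR-16-2-3p held in 5 of 6 libraries, with male replicate 2 the exception in both. In females miR-15b-5p (235 to 292 CPM) lay wholly above miR-195a-5p (187 to 204 CPM). Likewise miR-15b-3p (20.3 to 23.1 CPM) lay above miR-16-2-3p (16.6 to 19.0 CPM) in females. In males the ranges of both pairs overlapped.

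**Figure D1:**
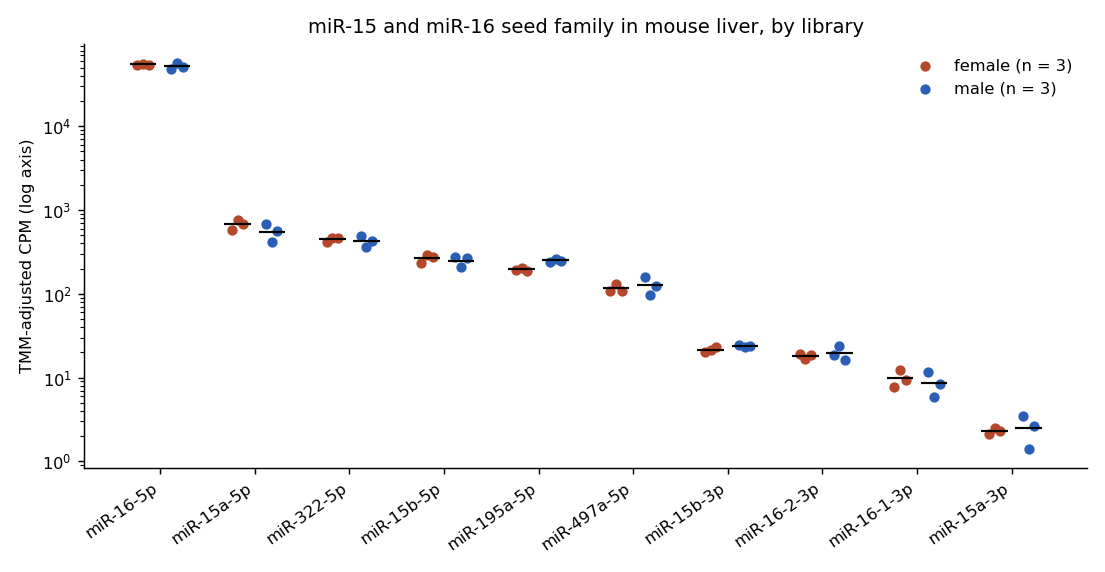
Level of the 10 members in each library, as TMM-adjusted CPM on a log axis, with members ordered by their mean. Points are libraries (3 female on the left of each pair, 3 male on the right) and lines are group means; miR-16-5p stands 86.9-fold above the next member and the sexes overlap in every member but miR-195a-5p.

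The family as a whole took 5.91, 5.92 and 5.97% of the counts in female libraries, against 4.98, 5.31 and 4.98% in male libraries. Counting error is small at this depth, the exact binomial 95% interval being at most 5.94 to 6.00% in the shallowest library and covering counting error only. On this plain share the groups did not overlap, at 5.93 ± 0.0331% in females and 5.09 ± 0.193% in males (SD, n = 3 each). Of single tested miRNAs, 25.1% did not overlap on this scale, 19.2% with females above males and 5.95% with females below. After TMM adjustment the female libraries lay at 5.62, 5.74 and 5.59% and the male libraries at 5.06, 5.79 and 5.20%, and the groups overlapped, as male replicate 2 was the highest of all. Nearly all of the family was miR-16-5p, which made up 96.9 ± 0.257% of it in females and 96.9 ± 0.669% in males. The 3p members together made up 0.0918 ± 0.00413% in females and 0.102 ± 0.0111% in males.

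In the comparison of the sexes, 0 of the 10 members passed an adjusted p of 0.05 (edgeR quasi-likelihood test, Benjamini-Hochberg adjustment over 370 miRNAs), where 6.76% of all tested miRNAs did, 3.24% higher and 3.51% lower in females. At an unadjusted p under 0.05 there was 1 member, miR-195a-5p, against 18.1% of all tested miRNAs. No member passed in DESeq2 or limma-voom either. Positive log2 fold changes, higher in female liver, were found in 5 of 10 members and 178 of 370 tested miRNAs. The median was -0.01 for the members and -0.01 for all tested miRNAs. A p above the threshold does not show equal levels, so each member is given below with the 95% interval of its difference.

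**Figure D2:**
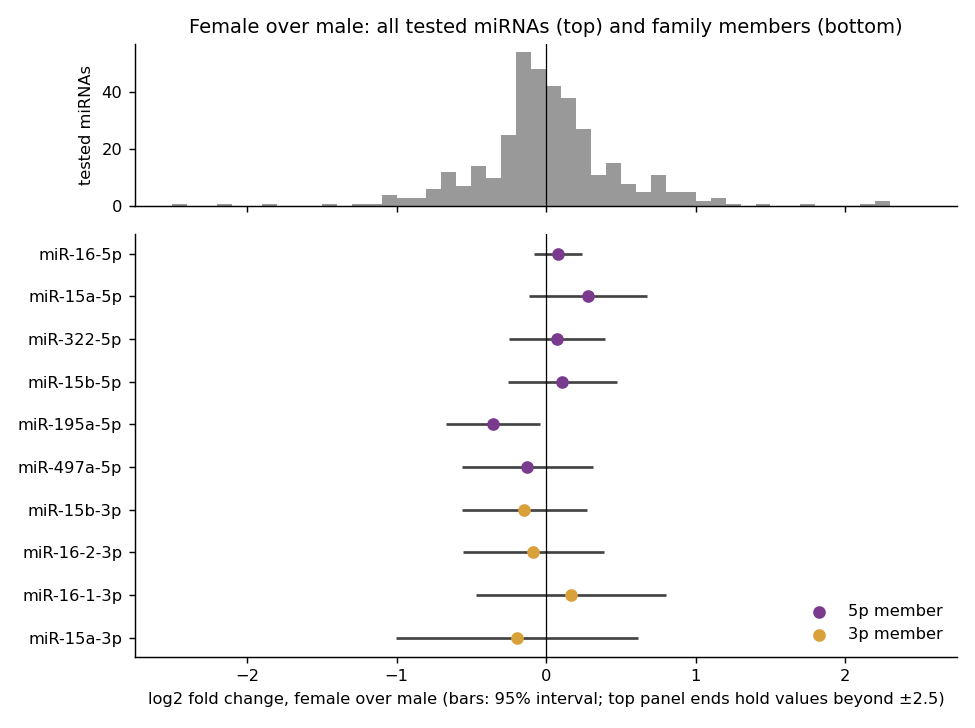
Log2 fold change of female over male liver for all 370 tested miRNAs (histogram, above) and for the 10 members (below), in order of level. Bars are 95% intervals derived from the edgeR test. The intervals of 9 members include 0, and miR-195a-5p lies at -0.36 with an interval of -0.67 to -0.04.

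The dominant member, miR-16-5p, had 54591, 55514 and 54125 CPM in females, against 48748, 56510 and 50301 CPM in males. The female libraries lay within a narrow band, and male replicate 2 stood above them while the other males stood below. The means were 54743 ± 707 CPM in female liver and 51853 ± 4107 CPM in male liver (SD, n = 3 each), with a log2 fold change of 0.08 (95% interval -0.08 to 0.24; adjusted p = 0.672, edgeR). The interval corresponds to a fold between 0.944 and 1.18. Without male replicate 1 the log2 fold change was 0.02, and without male replicate 2 it was 0.15, neither past the threshold. Its direction depended on the scaling. On plain shares it took 5.74, 5.72 and 5.78% of counts in females and 4.79, 5.18 and 4.82% in males. On that scale the groups did not overlap, as was true of 25.1% of tested miRNAs, 19.2% with females above males. With no normalisation factor, edgeR gave a log2 fold change of 0.22 (adjusted p = 0.0569). With upper-quartile factors the log2 fold change was -0.01. Those scalings moved the median of all tested miRNAs to 0.13 and -0.10, so relative to that median miR-16-5p stayed close to the bulk of miRNAs.

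Since miR-16-5p is also abundant in blood cells, the levels of blood cell markers are given beside it. The 5 erythroid markers, miR-451a among them, summed to 224 to 378 CPM in females and 235 to 275 CPM in males. All 4 that were tested had positive log2 fold changes, from 0.03 to 0.51, and none passed. The highest library for the erythroid sum was female replicate 2, and male replicate 2, the highest for miR-16-5p, had a sum of 275 CPM. Of the sum in male replicate 2, 165 CPM was miR-486a-5p, at its highest of the 6 libraries. Another 58.1 CPM was miR-144-5p, neither its highest nor its lowest. There miR-451a at 19.4 CPM and miR-144-3p at 32.8 CPM were at their lowest of the 6 libraries. The only erythroid marker not tested, miR-486a-3p, had at most 2 counts in a library once counts were rounded. Leukocyte markers had log2 fold changes above 0 in 5 of 5 cases, where 178 of 370 tested miRNAs did. The 5 leukocyte markers summed to 4038 to 4592 CPM in females and 2898 to 4452 CPM in males. Of the 5, 1, miR-223-3p, was higher in females past the threshold, as were 3.24% of all tested miRNAs. The groups of miR-223-3p and miR-150-5p did not overlap, with females above males, as for 10.5% of all tested miRNAs. Those of miR-142a-3p, miR-142a-5p and miR-155-5p overlapped. The part of blood cells in the level of miR-16-5p was not tested. In whole tissue, fewer cells of a type and less RNA per cell cannot be told apart.

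The member with the clearest separation was miR-195a-5p, from the Mir195a hairpin of chromosome 11. It had 195, 204 and 187 CPM in females, against 242, 260 and 249 CPM in males. Each female library lay below each male library, with a gap larger than the spread within either sex. The means were 195 ± 8.77 CPM in female liver and 250 ± 9.20 CPM in male liver (SD, n = 3 each), a log2 fold change of -0.36 (SE 0.14; 95% interval -0.67 to -0.04). Its unadjusted p was 0.0297 in edgeR and its adjusted p 0.196, so it did not pass. It ranked 56 of 370 by p, and 21.6% of tested miRNAs had groups that did not overlap, 11.1% with females below males. The groups were separate on other scales too. On plain shares each female library also lay below each male one, where 25.1% of tested miRNAs did not overlap and 5.95% lay in this direction, and the ratio of miR-16-5p to miR-195a-5p counts within a library was 280, 272 and 290 in females, against 201, 217 and 202 in males. That ratio was chosen after its values were seen and is given as a description. Over all alternative fits the adjusted p ran from 0.0716 in DESeq2 to 0.688 with no filter, and the log2 fold change from -0.45 to -0.22.

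Stromal, biliary and epithelial markers and, of the 5 hepatocyte markers, only miR-122-5p lay in the same direction as miR-195a-5p and are given beside it. All 5 stromal markers had negative log2 fold changes, with a median of -0.21, and none passed. They summed to 11436, 11057 and 8915 CPM in females, against 12109, 12795 and 12262 CPM in males, so each female sum lay below each male sum. Most of that sum was miR-143-3p. Of the 5 markers, miR-143-3p and miR-199a-3p had groups that did not overlap, while miR-145a-5p, miR-199a-5p and miR-214-3p overlapped. Among all 370 tested miRNAs, 21.6% did not overlap, 11.1% with females below males. All 5 stromal markers were detected, from miR-143-3p at 8078 ± 1149 CPM in female liver and 9370 ± 455 CPM in male liver down to miR-214-3p at 5.99 ± 0.497 and 6.22 ± 0.669 CPM (SD, n = 3 each). The 5 biliary and epithelial markers were also all negative, with a median of -0.22, and none passed. Their sums were 814, 900 and 709 CPM in females and 1020, 861 and 950 CPM in males, and overlapped. The hepatocyte miRNA miR-122-5p had 315388, 315467 and 316383 CPM in female liver, against 343404, 387162 and 361343 CPM in male liver. Its groups did not overlap, with a log2 fold change of -0.21 (adjusted p = 0.053, edgeR). The other 4 hepatocyte markers had positive log2 fold changes. These were 0.44 for miR-122-3p, 0.02 for miR-192-5p, 0.17 for miR-194-5p and 2.29 for miR-802-5p. Of these only miR-802-5p passed, where 3.24% of all tested miRNAs were higher in females past the threshold. Of the 2 endothelial markers, miR-126a-3p was at -0.07 and miR-126a-5p at 0.02, and neither passed. The part of any of these cell types in the level of miR-195a-5p was not tested.

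**Figure D3:**
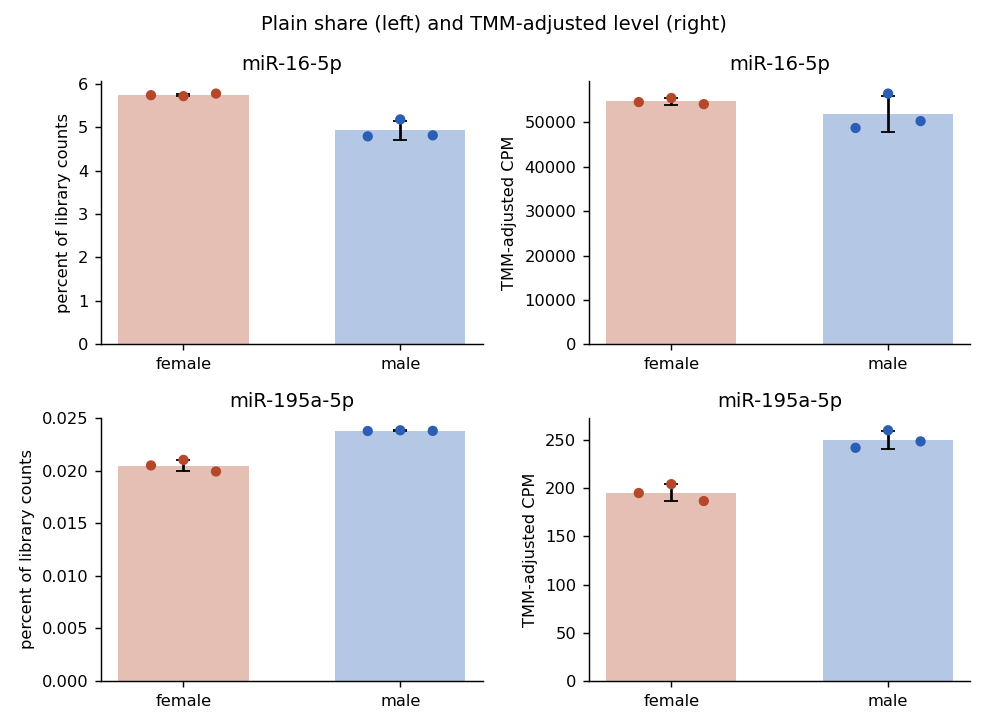
The abundant miR-16-5p (top) and the low miR-195a-5p (bottom) as plain percent of library counts (left) and as TMM-adjusted CPM (right). Points are libraries, bars means and error bars SD (n = 3 per sex); the female and male libraries of miR-195a-5p are separate on both scales, those of miR-16-5p only on the plain share.

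Its neighbour miR-497a-5p, from the adjoining hairpin, did not separate the sexes. It had 109, 130 and 109 CPM in females, against 158, 96.1 and 125 CPM in males, a log2 fold change of -0.12 (95% interval -0.56 to 0.31; adjusted p = 0.795, edgeR). Male replicates 1 and 2 held the highest and the lowest value, and the females lay between them. The count ratio of miR-195a-5p to miR-497a-5p was 1.78, 1.57 and 1.71 in females, and 1.53, 2.71 and 1.99 in males, so the pair moved apart most in male replicate 2. The opposite arm miR-195a-3p was low, at 4.39 ± 0.993 CPM in female liver and 5.50 ± 0.871 CPM in male liver (SD, n = 3 each; log2 fold change -0.26, adjusted p = 0.717, edgeR).

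From the Dleu2 hairpins, miR-15a-5p had 577, 757 and 684 CPM in females, against 680, 418 and 563 CPM in males. The groups overlapped, with female replicate 2 at the top and male replicate 2 at the bottom. The means were 673 ± 90.7 CPM in female liver and 554 ± 131 CPM in male liver (SD, n = 3 each), with a log2 fold change of 0.28 (SE 0.18; 95% interval -0.12 to 0.67; adjusted p = 0.476, edgeR). This was the largest positive value among the members. Without male replicate 2 it was 0.11, and without male replicate 1 it was 0.42, neither past the threshold. Its discarded arm, miR-15a-3p, had 13, 9 and 8 counts in females and 22, 6 and 42 counts in males, and male replicate 2 was again the lowest once scaled to library size. The other discarded arm of this place, miR-16-1-3p, had 7.76, 12.5 and 9.41 CPM in females, against 11.6, 5.90 and 8.32 CPM in males (log2 fold change 0.17, adjusted p = 0.808, edgeR).

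From the Smc4 hairpins, miR-15b-5p had 235, 292 and 278 CPM in females, against 273, 207 and 267 CPM in males. Its log2 fold change was 0.11 (95% interval -0.25 to 0.47; adjusted p = 0.795, edgeR), and the groups overlapped. The opposite arm miR-15b-3p was the steadiest of the low members, at 20.3, 21.3 and 23.1 CPM in females and 24.4, 22.9 and 24.1 CPM in males (log2 fold change -0.15, adjusted p = 0.775, edgeR). The arm opposite the Smc4 copy of miR-16, miR-16-2-3p, had 19.0, 16.6 and 18.8 CPM in females and 18.5, 23.6 and 16.3 CPM in males (log2 fold change -0.09, adjusted p = 0.894, edgeR).

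The arms miR-16-2-3p and miR-16-1-3p mark their hairpins, because they differ in sequence while miR-16-5p does not. Counts of miR-16-2-3p, the Smc4 side, over miR-16-1-3p, the Dleu2 side, were 2.45, 1.33 and 2.0 in females, against 1.60, 4.0 and 1.96 in males. The miR-16-2-3p arm was the higher in all 6 libraries, and the sexes overlapped. The ratio of 4.0, in male replicate 2, rests on 25 counts of miR-16-1-3p. How much of each 3p arm is kept was not measured, so these counts do not give the output of either side. The 5p partners had the opposite order, miR-15a-5p from Dleu2 exceeding miR-15b-5p from Smc4 by 2.45, 2.59 and 2.45 times in females and by 2.5, 2.02 and 2.11 times in males. Male replicate 2 was at the end toward Smc4 in both ratios. Counts of miR-16-5p exceeded the sum of miR-15a-5p and miR-15b-5p, its neighbours at these places, by 52.9 to 67.2 times in females and 51.2 to 90.4 times in males.

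The X-linked miR-322-5p had 417, 465 and 468 CPM in females, against 486, 366 and 431 CPM in males. The female values lay inside the male range, with a log2 fold change of 0.07 (95% interval -0.25 to 0.39; adjusted p = 0.842, edgeR). Of the 11 other miRNAs named for its cluster 8 were tested, 3 with a positive log2 fold change, and none passed; the median was -0.04. Among them miR-503-5p, whose seed differs from the family's at its last base, stood at 44.2 ± 3.10 CPM in female liver and 45.6 ± 9.52 CPM in male liver. The only one with groups that did not overlap was miR-450a-5p, at 5.41 ± 0.953 CPM in female liver and 3.38 ± 0.760 CPM in male liver (SD, n = 3 each). Its log2 fold change was 0.63 (adjusted p = 0.294, edgeR). Among all 370 tested miRNAs, 21.6% did not overlap, 10.5% with females above males.

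The related miRNAs miR-103-3p and miR-107-3p, which hold the same core bases shifted by 1 position, were more abundant than every member but miR-16-5p. They stood at 3423 ± 245 CPM in female liver and 3373 ± 479 CPM in male liver for miR-103-3p, and at 2149 ± 125 CPM in female liver and 1842 ± 200 CPM in male liver for miR-107-3p (SD, n = 3 each). Their log2 fold changes were 0.02 and 0.22, and neither passed (adjusted p = 0.959 and 0.348, edgeR). The groups of miR-103-3p overlapped. Those of miR-107-3p did not, with females above males, as for 10.5% of all tested miRNAs. Mature miR-103-3p and miR-107-3p differ near their 3′ ends, so how reads were divided between them is uncertain.

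The members did not all vary together across libraries. Male replicate 2 was the lowest library for 6 of the 10, namely miR-15a-5p, miR-15a-3p, miR-15b-5p, miR-16-1-3p, miR-497a-5p and miR-322-5p. It was the highest for miR-16-5p, miR-16-2-3p and miR-195a-5p. Among all 370 tested miRNAs it was the lowest library for 29.5% and the highest for 31.1%. Against the mean of the other males it held 0.672 times as much miR-15a-5p and 0.461 times as much miR-15a-3p, but 1.14 times as much miR-16-5p and 1.36 times as much miR-16-2-3p. The direction of 4 members turned when this library was left out, all of them members with small differences: the log2 fold change was then -0.0037 for miR-15b-5p, -0.0024 for miR-16-1-3p, -0.02 for miR-322-5p and 0.08 for miR-16-2-3p. Why this library stands apart was not tested.

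**Figure D4:**
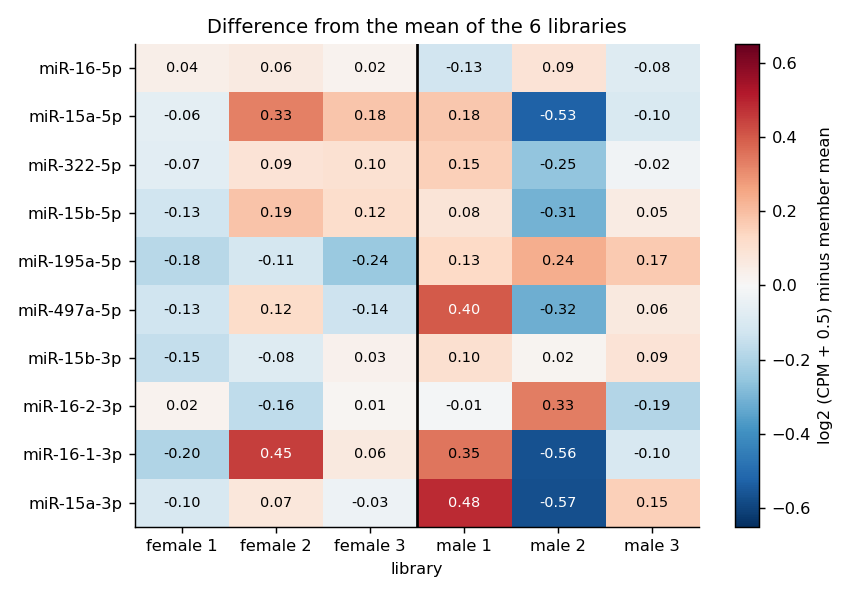
Log2 (CPM + 0.5) of each member minus its mean over the 6 libraries, female libraries on the left of the line and male libraries on the right. Male replicate 2 runs from -0.57 for miR-15a-3p to 0.33 for miR-16-2-3p, and miR-195a-5p is negative in all female and positive in all male libraries.

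Across the 6 libraries, likeness to a member was measured as the mean absolute difference of log2 CPM, each centred on its own mean. For miR-16-5p the closest of 369 others were miR-542-5p at 0.0383, miR-221-3p at 0.0402 and miR-532-5p at 0.0439, where the median was 0.234. The closest family member, miR-16-2-3p, ranked 55th at 0.120. For miR-15a-5p the closest were miR-335-5p at 0.0585, miR-3068-5p at 0.0919 and miR-130a-3p at 0.0922, with a median of 0.299 over all. There miR-16-1-3p, from the adjoining hairpin, ranked 4th at 0.0983, miR-322-5p 11th and miR-15b-5p 16th. The other arm of its own hairpin, miR-15a-3p, ranked 50th, miR-497a-5p 62nd, miR-15b-3p 120th, miR-16-5p 121st, miR-16-2-3p 203rd and miR-195a-5p 232nd. All of these values share the same libraries and the same scaling, and miRNAs that vary little are close to any other that varies little.

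The 5p arm exceeded the 3p arm in every library and at every hairpin, but by very different amounts. For miR-16-5p against both of its 3p arms the count ratio was 2041, 1911 and 1918 in females and 1621, 1915 and 2041 in males. For Mir15a it was 269, 304 and 300 in females and 195, 295 and 211 in males. Mir195a and Mir322 lay between 28.7 and 61.5 in all 6 libraries. The lowest ratio was that of Mir15b, at 11.6, 13.7 and 12.1 in females, against 11.2, 9.05 and 11.1 in males, so that its 3p arm was the least depleted. At Mir497 the 3p arm had 1 to 4 counts per library and shares reads with miR-497b, which left its ratio, 191 to 985, poorly measured.

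A ratio of arms needs no scaling between libraries, so it was compared between the sexes at the 6 hairpins or pairs of hairpins. At Mir15b each female library exceeded each male library, with a log2 ratio of 3.63 ± 0.126 in females and 3.37 ± 0.174 in males (SD, n = 3 each; exact two-sided permutation p = 0.1). This is the smallest p that 3 against 3 allow, so none of the 6 comparisons could pass 0.05. The difference at Mir15b was 0.25 on the log2 scale, and 0.15 without male replicate 2. Among the 92 miRNA names with both arms tested, a background added after the ratio at Mir15b was seen, 9.78% had groups that did not overlap in this ratio. The other exact permutation p-values were 0.2 for Mir15a, 0.5 for Mir322, 0.8 for miR-16-5p and for Mir195a, and 0.9 for Mir497.

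**Figure D5:**
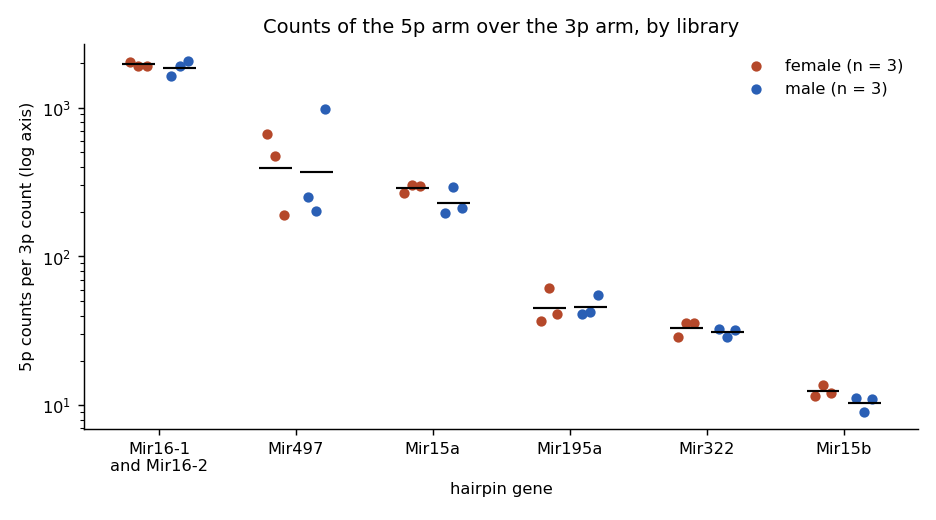
Counts of the 5p arm per count of the 3p arm at each hairpin, on a log axis, in female (left of each pair) and male (right) libraries, with lines at geometric means. The ratio falls from a geometric mean over the 6 libraries of 1896 for miR-16-5p to 11.3 for Mir15b (0.5 added to each count), and the sexes are separate only at Mir15b.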

How the data were processed

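The authors deposited a table of estimated counts of reads per mature miRNA, not normalised, for 6 liver libraries. Partek, Bowtie and the mm10 build are named in the submitters' processing notes, with no versions or settings; trimming and the treatment of reads that match several miRNAs are not given there or in the labels. Reads of close sequences, such as miR-16-5p and miR-195a-5p, could be divided between them. Of 2045 rows, 138 repeated another exactly and were dropped. The members' counts were all whole numbers, and other estimated counts were rounded. Counts of miR-122-5p were deposited as round numbers (1110000 to 5690000 per library), so its CPM and the library totals are less exact than printed. The members and lists were chosen with earlier results of these data known.

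The test of female against male libraries was quasi-likelihood in edgeR (4.0.16, under R 4.3.3), after TMM scaling, with the filterByExpr filter (minimum count 10, minimum total 15), the robust option and Benjamini-Hochberg adjustment over 370 tested miRNAs at 0.05. The test was checked on simulated data. Fold changes are female over male. The SE was derived as the size of the log2 fold change over the root of the F statistic of the test. The 95% intervals use that SE with a t distribution and are approximate. Replicates were numbered in accession order and pair no animals, and the libraries' order in the labels follows sex, so an effect of that order cannot be told apart from it. No library pair was a duplicate (chi-square per degree of freedom at least 29.4). Alternatives were RLE, upper-quartile or no factors, other filters, DESeq2 1.42.0, limma-voom (limma 3.58.1), no robust option, totals with repeated rows, and leaving out each library. Exact permutation tests used SciPy 1.17.1. Named miRNAs were all members, fixed lists of related miRNAs and cell markers, and the 3 closest in pattern to each of the 2 most abundant members.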

Additional observations from a re-analysis of the deposited data

How the results depend on the processing

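No member passed the threshold in any of the 15 alternative fits, where the lowest adjusted p of a member was 0.0569 (miR-16-5p, edgeR with no normalisation factor). Of 149 member values, 139 kept their direction and 10 turned, 4 of them on all libraries: with upper-quartile factors miR-16-5p was at -0.013 and miR-322-5p at -0.024, and with no normalisation factor miR-16-2-3p was at 0.058 and miR-497a-5p at 0.0063 (log2 fold change). Such scalings shift all values nearly alike. With a library left out, log2 fold changes ran from 0.016 to 0.15 for miR-16-5p, -0.0037 to 0.18 for miR-15b-5p, -0.040 to 0.38 for miR-16-1-3p, -0.20 to 0.075 for miR-16-2-3p, -0.28 to 0.038 for miR-497a-5p and -0.024 to 0.15 for miR-322-5p. With a minimum count of 50, miR-15a-3p was not tested, and 13 of 246 tested miRNAs passed in place of 25 of 370. The count was 17 in limma-voom and 31 in DESeq2. It ran from 9 to 32 when a library was left out, falling to 9 when female replicate 2 was left out, to 10 for female replicate 3 and to 12 for male replicate 3. The share of calls higher in females was 48% with TMM, 65% with no factor and 26.9% with upper-quartile factors. The family's share was 0.842 percentage points higher in females, 1.09 without miR-122-5p in the totals and 0.298 with TMM; without a library it ran from 0.786 to 0.953. The log2 arm ratio, female minus male, ran from -0.018 to 0.15 for miR-16-5p, -0.25 to 0.097 for Mir195a and -0.60 to 0.54 for Mir497 when a library was left out. The cause of these changes was not tested. Counts of under 20 in some libraries limit miR-15a-3p, miR-195a-3p, miR-497a-3p, miR-195b and miR-450a-5p. No paired analysis was possible because the replicate numbers were given in accession order and the labels pair no animals.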
